A study of Mus musculus with 2 samples.

Results

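The ephrin, semaphorin, slit and netrin families and their receptors were described in 2 RNA libraries of sorted mouse mammary cells. Members were taken by their gene symbols, as the protein-coding genes of GENCODE M21 that belong to the ephrin-A and ephrin-B ligands, the EphA and EphB receptors, semaphorin classes 3 to 7, the plexins, Slit1 to Slit3, Robo1 to Robo4, the netrins or the Unc5 receptors. This gave 65 genes of 54438 with listed transcripts, and 1 more gene with such a name was not analysed here. Both libraries, W1 and W2, were labelled as mammary basal cells of wild type C57BL/6 mice aged 8 weeks, sorted by flow cytometry and lysed in a Smart-seq reagent. The study set Pd-l1 positive against Pd-l1 negative basal cells, but the labels of W1 and W2 do not say which class either library is, so they stand here as 2 unassigned libraries. The number of mice and of cells behind each are not stated in the labels. Neither library has a replicate, so no p-value is given, and the intervals cover counting error only.

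Guidance molecules were first described in growing axons and also act on epithelia and vessels. Ephrins are membrane-bound ligands of the Eph receptor tyrosine kinases, and the B class can also signal back into the cell that carries it. Semaphorins act through plexins, whose intracellular part controls small GTPases, and most class 3 semaphorins need a neuropilin as co-receptor. Slits bind Robo receptors, and netrins bind Dcc, neogenin and the Unc5 receptors. In the mammary gland, netrin with neogenin and slit with Robo are known for holding the layers of the duct together, and in vessels Plxnd1, Robo4, Unc5b and the pair of ephrin-B2 with EphB4 are known for guiding growth.

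Counted reads came to 3055839 for W1 and 3800029 for W2. The 10 endothelial markers together stood at 4888 TPM (transcripts per 1000000, a level that allows for transcript length) in W1, where all 10 had reads, and at 4.78 TPM in W2, where 9 had none. The 8 basal epithelial markers together stood at 6.62 TPM in W1 and 33368 TPM in W2, and of the defining keratins Krt5 had 0 and Krt14 had 1 read in W1. The data therefore go against the basal cell label of W1. The sums in W1 and W2 were 7.35 and 4212 TPM for 8 luminal markers, 3.19 and 206 TPM for 7 fibroblast markers, 88.7 and 7.17 TPM for 6 leukocyte markers, and 0 and 1.67 TPM for 5 nerve and Schwann cell markers. The sums of 5 lymphatic endothelial markers were 2962 and 531 TPM, of which Pdpn gave 438 and 531 TPM, and in W2 the other 4 had no reads. Of 5 pericyte markers, 4 had no reads in either library, while Rgs5 stood at 59.2 and 51.3 TPM from 707 and 641 reads. The part of these cell type markers in the differences below was not tested, and fewer cells of a type cannot be told apart from less RNA per cell.

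Semaphorins and most plexins with enough reads were higher in W1, while most ephrins and Eph receptors that differed were higher in W2. Of the 65 members, 39 were above 0 in at least 1 library and 28 reached 1 TPM in at least 1 library and were compared. On the log2 scale of TPM + 1, 15 of the 28 were 2-fold or more higher in W1, where 34.7% of all 12587 genes compared were. Another 8 were 2-fold or more higher in W2, where 32.9% of all genes were, and 5 lay within 2-fold. A gene at 0 in 1 library that reaches 1 TPM in the other is 2-fold apart on this scale by construction. Of the 23 members called, 15 were at 0 in the other library, 11 of them called toward W1 and 4 toward W2, and so passed only through the library where they are high. Of all genes compared, 67.6% were apart in either direction, and 51.3% of these were at 0 in 1 library. The counts and medians here therefore describe the members compared and do not stand for all 65. The median log2 ratio of W1 over W2 was 1.24 over the members and -0.07 over all genes compared. With such zeros set to a floor of 3 reads, 14 members were called toward W1 (27.2% of all genes) and 7 toward W2 (29.4%), the calls of Efna2 and Ephb6 were lost, and the members' median was 1.04. The median over all genes depends on the scaling, and was 0.23 with FPKM, 0.26 with reads scaled to library size and -0.32 with ribosomal protein and mitochondrial genes left out, where the members' medians were 1.23, 1.72 and 1.32. The 11 members above 0 but not compared lay between 0.099 TPM for Slit2 and 0.742 TPM for Ntn3, and the lowest member compared was Efna2 at 1.08 TPM.

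**Figure D1:**
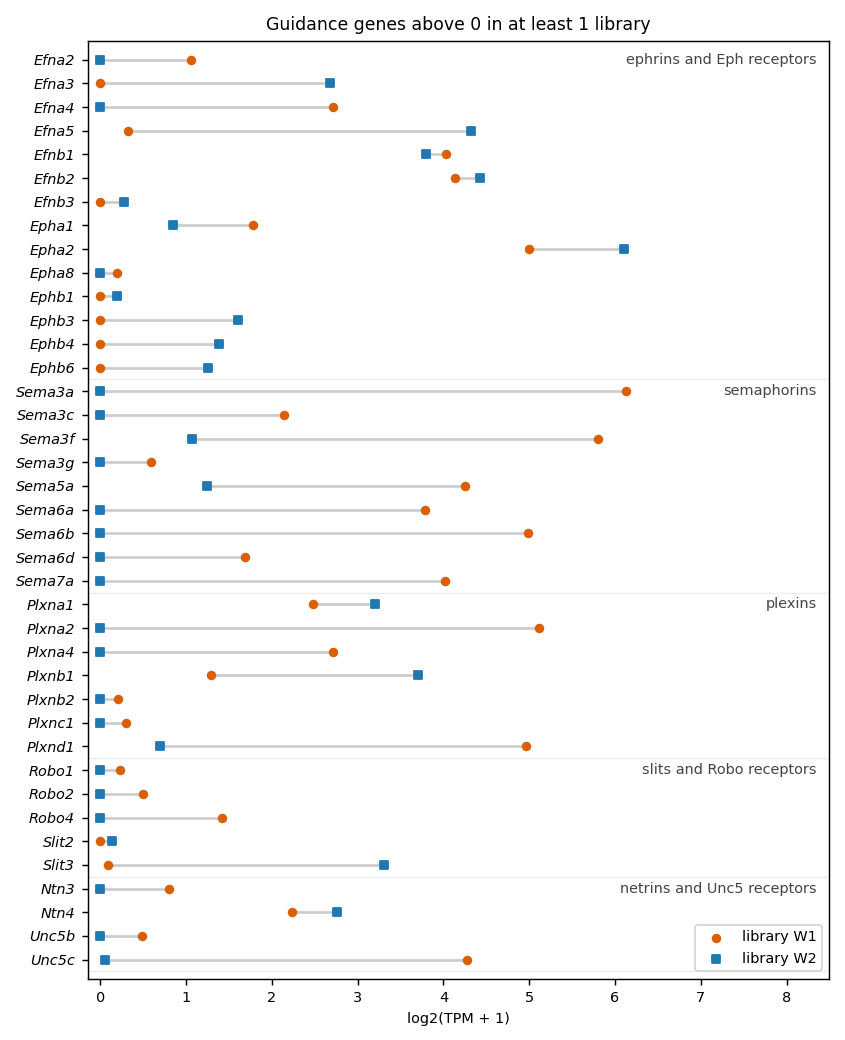
Level of the 39 guidance genes above 0 in at least 1 library, as log2(TPM + 1) on the horizontal axis, grouped by system. Orange circles are W1 and blue squares W2, each a single library. The 9 semaphorins above 0 all have the W1 circle to the right, while Efna5, Slit3 and Plxnb1 have the W2 square to the right.

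By system, the semaphorins had 8 members compared, all 8 higher in W1, with a median log2 ratio of 3.90. The plexins had 5, of which 3 were higher in W1 and 1 in W2, with a median of 2.71. The ephrins and Eph receptors had 11, of which 2 were higher in W1 and 6 in W2, with a median of -1.11. The slits with the Robo receptors had 1 in each direction, and the netrins with the Unc5 receptors had 1 higher in W1 and 1 within 2-fold. Sorted by role instead, 10 of 16 ligands and 5 of 12 receptors were higher in W1, and 3 ligands and 5 receptors in W2. Of all genes compared, 34.7% were higher in W1 and 32.9% in W2, beside 41.7% of the receptors in each direction. Called from 0 reads in W2 were Sema3a, Sema3c, Sema6a, Sema6b, Sema6d, Sema7a, Plxna2, Plxna4, Efna2, Efna4 and Robo4. Efna3, Ephb3, Ephb4 and Ephb6 were called from 0 reads in W1. These counts per system and role describe the members compared only.

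**Figure D2:**
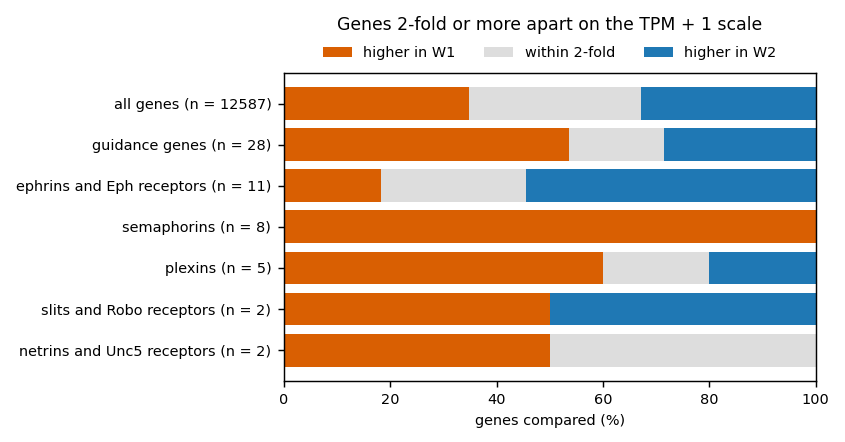
Share of the genes compared that were 2-fold or more higher in W1 (orange), within 2-fold (grey) or 2-fold or more higher in W2 (blue), for all 12587 genes, the 28 guidance genes and each system. The bar of the 8 semaphorins is orange throughout, and in the 11 ephrins and Eph receptors the blue part is the longest.

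The starts of members on either side are shown to give the sequence context of genes called in the same direction. Of the 39 members above 0, 29 had a RefSeq promoter window (GRCm38.p6) whose start lay within 100 bases of the start of the transcript with the most reads. The 200 bases before the start are printed 5' to 3' on the gene's strand for 3 members higher in W1 (Plxna2, chr1:194619629-194619828, plus strand; Plxnd1, chr6:115995006-115995205, minus strand; Sema6b, chr17:56140344-56140543, minus strand) and for 3 higher in W2 (Efna5, chr17:62881318-62881517, minus strand; Plxnb1, chr9:109095236-109095435, plus strand; Epha2, chr4:141301021-141301220, plus strand). Capitals mark matches on either strand to the GC box GGGCGG, the ETS core CCGGAA, the TEAD core GGAATG, the AP-1 motif TGANTCA, the forkhead motif GTAAACA or the box CCAAT.
Plxna2: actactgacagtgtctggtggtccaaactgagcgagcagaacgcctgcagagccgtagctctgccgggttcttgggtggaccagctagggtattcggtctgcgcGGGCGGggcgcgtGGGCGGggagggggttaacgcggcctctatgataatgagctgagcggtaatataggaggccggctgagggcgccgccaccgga
Plxnd1: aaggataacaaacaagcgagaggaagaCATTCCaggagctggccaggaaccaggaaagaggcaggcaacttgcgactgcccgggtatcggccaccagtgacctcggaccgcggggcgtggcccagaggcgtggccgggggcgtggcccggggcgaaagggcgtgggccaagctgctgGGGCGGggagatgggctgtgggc
Sema6b: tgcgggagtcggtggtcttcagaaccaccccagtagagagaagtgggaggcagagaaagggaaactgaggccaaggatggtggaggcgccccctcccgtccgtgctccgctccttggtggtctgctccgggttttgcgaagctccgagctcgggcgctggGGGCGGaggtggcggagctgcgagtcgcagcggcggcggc
Efna5: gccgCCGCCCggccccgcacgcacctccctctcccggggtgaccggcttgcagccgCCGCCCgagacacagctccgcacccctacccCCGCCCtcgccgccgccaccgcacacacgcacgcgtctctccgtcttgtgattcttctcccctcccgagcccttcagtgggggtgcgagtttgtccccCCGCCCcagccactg
Plxnb1: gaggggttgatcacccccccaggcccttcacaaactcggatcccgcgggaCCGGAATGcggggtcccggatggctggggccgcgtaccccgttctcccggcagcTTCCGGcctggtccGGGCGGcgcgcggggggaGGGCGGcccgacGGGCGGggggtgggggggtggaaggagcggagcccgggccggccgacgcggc
Epha2: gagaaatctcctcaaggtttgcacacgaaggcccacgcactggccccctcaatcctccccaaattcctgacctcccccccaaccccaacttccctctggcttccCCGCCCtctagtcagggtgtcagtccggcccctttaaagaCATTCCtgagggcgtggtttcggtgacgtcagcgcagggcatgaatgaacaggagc

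The GC box was found in 7 of the 9 windows of members higher in W1 and in 7 of the 7 windows of members higher in W2, against 31.0% of 32817 RefSeq windows of the same length. It was also in 3 of 4 windows of members within 2-fold and in 6 of 9 of members not compared. The member windows were also richer in G and C, with a median of 68.5% against 53% over all windows, and the 2 sides differed little in this (68% for W1 and 69% for W2). The RefSeq windows were not limited to protein-coding genes with reads, as the member windows were, so the sets compared are unlike. The ETS core was in 0 of 9 and 2 of 7 windows (10.7% of all windows) and the TEAD core in 1 of 9 and 2 of 7 (10.1%). In Plxnb1 an ETS match and a TEAD match overlap. The box CCAAT was in 1 of 9 and 1 of 7 (29.3%). Among the 4 windows within 2-fold, the ETS core was in 0, the TEAD core in 2 and the box CCAAT in 2. Among the 9 not compared these were 1, 0 and 2. No member window held the AP-1 motif (5.48% of all) or the forkhead motif (2.51%). These matches describe the letters of the windows only.

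Class 3 semaphorins are secreted, and one of them, Sema3a, had the highest log2 ratio of TPM + 1 among the members compared. Sema3a, a repellent that acts through Nrp1 and class A plexins (chromosome 5, 13125414 to 13602565, plus strand), stood at 68.9 TPM from 841 reads in W1 and had 0 reads in W2. It was at least 282-fold higher in W1, and its log2 ratio of 6.13 was exceeded by 70 of all genes compared. Its reads fell on 5 transcripts, with 632 of 841 on the main protein-coding one, which held 35.2 of the 68.9 TPM. Sema3f, which acts through Nrp2 and is known for restraining vessel growth (chromosome 9, 107681500 to 107710475, minus strand), reached 54.8 TPM in W1 and 1.09 TPM in W2, from 533 and 11 reads. That is a 50.3-fold difference with a counting interval of 27.9 to 101. Sema3c had 16 and 0 reads, all on a transcript annotated as a retained intron, and Sema3g had 7 and 0 reads. Both lay in the same direction as Sema3a at far lower depth, and Sema3b and Sema3e were listed at 0 in both libraries.

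The transmembrane and lipid-anchored semaphorins lay in the same direction. Sema6b (chromosome 17, 56123085 to 56140343, minus strand), a transmembrane ligand of Plxna4, reached 30.6 TPM from 341 reads in W1 and had 0 reads in W2, at least a 114-fold difference. Sema7a, which is held in the membrane by a lipid anchor and binds Plxnc1 and integrin beta 1, had 152 and 0 reads (15.2 TPM in W1, at least 51.01-fold). Sema5a, which carries thrombospondin repeats, was read in both libraries, at 18.1 and 1.36 TPM from 515 and 45 reads, a 13.3-fold difference (9.77 to 18.4). Sema6a and Sema6d, transmembrane ligands of class A plexins, had 27 and 30 reads in W1 and 0 in W2. Neither level is well defined, since the 27 reads of Sema6a fell mostly on 2 short transcripts of 717 and 652 bases, which gives it 12.8 TPM, and the 30 reads of Sema6d fell on a retained-intron transcript (2.21 TPM). No reads were counted on any of the 6 class 4 semaphorins, on Sema5b or on Sema6c in either library.

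**Figure D3:**
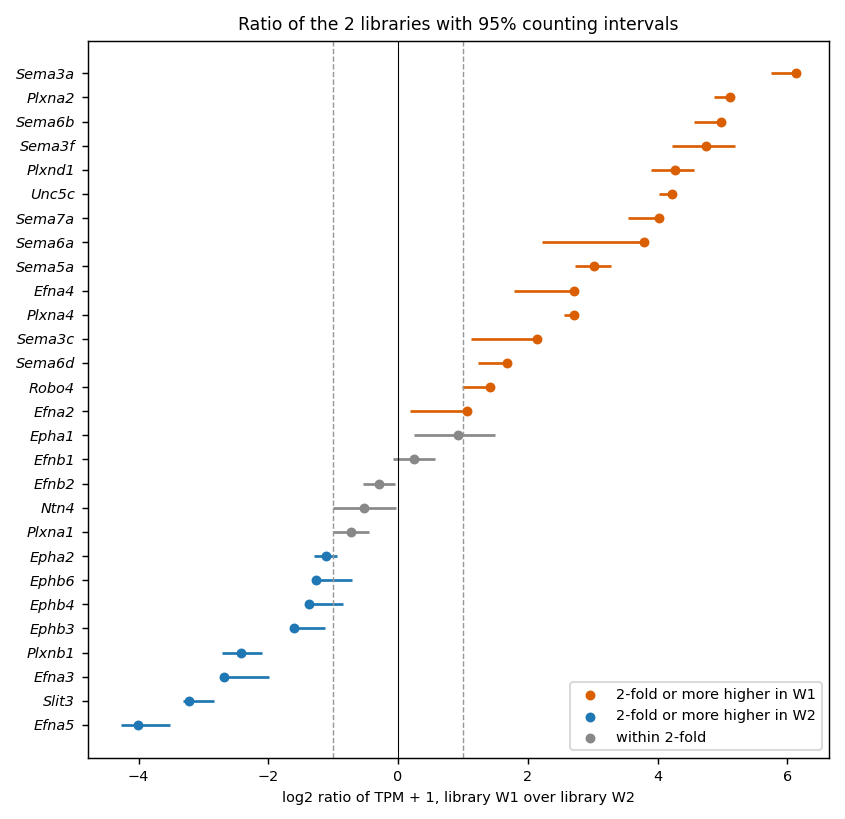
Log2 ratio of TPM + 1, W1 over W2, for the 28 guidance genes compared, with 95% counting intervals from the reads as horizontal lines and dashed lines at 2-fold. Sema3a at 6.13 and Efna5 at -4.01 are the ends of the range, and the intervals of Efna2, Robo4, Epha2, Ephb4 and Ephb6 among the coloured points reach inside the 2-fold lines.

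Among the plexins, the receptors of semaphorins, Plxna2, Plxna4 and Plxnd1 were called toward W1 and Plxnb1 toward W2, while Plxna1 was within 2-fold. Plxna2 (chromosome 1, 194618218 to 194816869, plus strand), a receptor of Sema6a and, with neuropilin, of class 3 semaphorins, stood at 33.5 TPM from 713 reads in W1 and had 0 reads in W2, at least a 239-fold difference. Its protein-coding transcript held 555 of the 713 reads but 16.6 of the 33.5 TPM, the rest being on shorter transcripts not annotated as protein-coding. Plxnd1 (chromosome 6, 115954811 to 115995005, minus strand), a receptor prominent in endothelial cells, stood at 30.1 and 0.617 TPM from 630 and 13 reads, a 48.8-fold difference (28.3 to 92.1). Plxna4 had 217 and 0 reads (5.56 TPM in W1, at least 72.8-fold), and the opposite-strand gene Plxna4os3, which shares up to 110 bases of an exon with it, stood at 10.7 and 0 TPM. The labels do not say whether the counting used strand, so reads of such a pair cannot be told apart where they overlap. Plxna1, the other class A plexin with reads, was within 2-fold, at 4.57 and 8.201 TPM from 125 and 226 reads. Its own ratio was 1.80-fold toward W2 (1.44 to 2.25), and with ribosomal protein and mitochondrial genes left out it passed the 2-fold rule in that direction, at a log2 ratio of -1.004. Plxnb1 (chromosome 9, 109095389 to 109119917, plus strand), the receptor of Sema4d, went the other way, at 1.45 and 12.1 TPM from 38 and 318 reads, 8.31-fold higher in W2 (5.93 to 11.96). Plxnb2 and Plxnc1 had 3 and 5 reads in W1 and none in W2, and Plxna3 and Plxnb3 were listed at 0 in both.

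The neuropilins, which are not members but complete the class 3 receptors, lay on the side of Sema3a and Sema3f. Nrp1 stood at 45.3 and 0.091 TPM from 494 and 1 reads, and Nrp2 had 371 and 0 reads (18.7 TPM in W1, at least 125-fold). Set side by side in W1, Sema3a (68.9 TPM), Nrp1 (45.3 TPM), Plxna2 (33.5 TPM) and Plxna4 (5.56 TPM) were all read, while in W2 the only reads of these 4 genes were 1 on Nrp1. For Sema3e and its receptor Plxnd1, only the receptor was read, and the same held for Sema4d and Plxnb1. The 0 of Sema4d can say little, since its long transcripts share most of their sequence with other listed transcripts. Sema7a was read in W1 with 5 reads on its receptor Plxnc1, while its other receptor gene Itgb1 stood at 81.8 and 120 TPM.

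The ephrin-A ligands, which attach to the membrane by a lipid anchor, were divided between the libraries. Efna5 (chromosome 17, 62604184 to 62881317, minus strand) had levels of 0.246 and 19.02 TPM from 3 and 234 reads, 77.3-fold higher in W2 (26.1 to 378). This was the member with the lowest log2 ratio, -4.01. Efna3 had 0 and 39 reads (5.41 TPM in W2, at least 12.9-fold), whereas Efna4 had 27 and 0 reads (5.57 TPM in W1, at least 9.06-fold). Both have an opposite-strand gene that shares 149 and 168 bases of an exon with them, at 0 and 2.67 TPM beside Efna3 and at 10.5 and 0 TPM beside Efna4, which is the same direction as the ephrin in each case. Efna3 and Efna4 are neighbours on chromosome 3 (89313899 to 89322965 and 89333390 to 89338028, both on the minus strand) and had their reads in different libraries. Efna2 had 7 and 0 reads, and its call toward W1 was lost with the zero at the floor (log2 ratio 0.51). Efna1, the third gene of the chromosome 3 group, was listed at 0 in both.

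Of the receptors of ephrin-A ligands, Epha2 carried the most reads of any member. Epha2 (chromosome 4, 141301240 to 141329384, plus strand), an Eph receptor of epithelial and endothelial cells, stood at 30.9 and 67.9 TPM from 366 and 810 reads. It was 2.20-fold higher in W2 (1.94 to 2.49), with a log2 ratio of -1.11, but fell short of 2-fold with FPKM (-0.81) and with reads scaled to library size (-0.82). Epha1 was 3.02-fold higher in W1 (1.31 to 7.78) at 2.42 and 0.801 TPM, from 24 and 8 reads. The log2 ratio of Epha1 on the TPM + 1 scale was 0.93, inside 2-fold, and it passed 2-fold with a pseudocount of 0.1 (1.48), with FPKM (1.05) and with reads scaled to library size (1.51). Epha8 had 2 and 0 reads, and the other 6 EphA receptors were listed at 0 in both libraries.

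The ephrin-B ligands with reads in both libraries were those that differed least. Efnb1 stood at 15.4 and 12.9 TPM from 152 and 128 reads, a ratio of 1.20 toward W1 with an interval of 0.939 to 1.52. With ribosomal protein and mitochondrial genes left out its log2 ratio changed from 0.24 to -0.04. Efnb2, the ligand that marks arteries, stood at 16.6 and 20.5 TPM from 232 and 300 reads, 1.24-fold higher in W2 (1.04 to 1.48). The log2 ratio of Efnb2 was -0.29 here, but -0.005 with FPKM and -0.05 with reads scaled to library size. Its sign was kept, but the size of the difference depends on the scaling and was near 0 in those 2 settings. The receptors of the ephrin-B ligands were read in W2 alone and at low depth. Ephb3 had 26 reads (2.04 TPM, at least 8.61-fold), Ephb4, the venous receptor of Efnb2, had 19 reads (1.599 TPM) and Ephb6, which lacks kinase activity, had 16 reads (1.39 TPM). All 3 were called toward W2, but with the W1 zeros at the floor of 3 reads the log2 ratios were -1.30 for Ephb3, -1.05 for Ephb4 and -0.92 for Ephb6, so that the call of Ephb6 was lost. Ephb1 had 2 reads in W2. The 19 reads of Ephb4 fell on a transcript annotated for nonsense-mediated decay, in which 267 of 3845 stretches of 50 bases occur in no other listed transcript. Ephb2 was listed at 0 in both libraries although 7758 such stretches belong to its transcripts. Of these, 6060 lie on 1 transcript, while another of 4755 stretches has 0 of its own.

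Most slit reads were in W2, and all Robo reads were in W1. Slit3, a secreted Robo ligand (chromosome 11, 35121224 to 35708507, plus strand), stood at 0.063 and 8.90 TPM from 1 and 142 reads, a ratio of 141 toward W2 with a wide interval of 25.0 to 5621. Slit2 had 3 reads in W2 and none in W1, and Slit1 was listed at 0. Robo4, the Robo receptor of endothelial cells (chromosome 9, 37401897 to 37415115, plus strand), had 25 and 0 reads (1.67 TPM in W1, at least 8.39-fold). Robo1 and Robo2 had 2 and 5 reads in W1, all on transcripts not annotated as protein-coding, and 0 in W2. Robo3, the neighbour of Robo4, was listed at 0.

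Of the netrin system, a receptor was the member that differed most. Unc5c (chromosome 3, 141465216 to 141834924, plus strand), a receptor for repulsion by netrin, stood at 18.4 and 0.034 TPM from 536 and 1 reads, a ratio of 540 toward W1 with an interval of 96.5 to 21376. An opposite-strand gene that shares up to 118 bases of an exon with it stood at 11.5 and 0 TPM. Unc5b, the endothelial Unc5 receptor, had 7 and 0 reads, and Unc5a and Unc5d were listed at 0. In the Unc5b transcript with reads, only 298 of 5820 stretches of 50 bases occur in no other listed transcript, so its level is poorly defined. Ntn4, a netrin of basement membranes that binds laminin, was read in both libraries at 3.71 and 5.75 TPM from 41 and 64 reads, 1.55-fold higher in W2 (1.03 to 2.35). Ntn3 stood at 0.742 and 0 TPM, and its number of reads did not come out whole. Ntn1, the ligand best known for binding Unc5 receptors, and Ntn5 were listed at 0 in both. Of other netrin receptors on the partner list, Dcc and Dscam were listed at 0 in both, and neogenin, Neo1, had 0 and 49 reads (2.18 TPM in W2, at least 16.2-fold).

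Partner and effector genes of these pathways, from a list of 46 that holds no member, had 31 genes compared. Of these, 18 were 2-fold or more higher in W1, 6 in W2 and 7 within 2-fold, which is 58.1% and 19.4% against 34.7% and 32.9% of all genes. Their median log2 ratio was 1.35, against -0.07 over all genes. Nrp2, Flrt2, Nck1, Srgap3, Pirb, Srgap1 and Arhgef11, called toward W1, were at 0 in W2, and Neo1, called toward W2, was at 0 in W1. Such genes passed only through the library where they are high, and this list was not redone with zeros at the floor. Srgap1, Arhgef11 and Vav3 had 11, 9 and 5 reads in W1. The shares and the median therefore describe the genes compared only. Rnd1, a GTPase that binds plexins, stood at 501 and 20.98 TPM, 23.9-fold higher in W1 (20.2 to 28.5). Flrt2 and Flrt3, membrane proteins that bind Unc5 receptors, had 335 and 0 reads and 1094 and 117 reads, and Flrt3 was 9.60-fold higher in W1 (7.93 to 11.7). Toward W1 also lay Mical3 (35.0 and 1.72 TPM, from 132 and 36 reads on transcripts of different length), of the enzymes that oxidise actin below plexins, and Adam10 (44.8 and 11.1 TPM), a protease that cleaves ephrins. Toward W2 lay Nck2 (5.596 and 30.4 TPM), an adaptor of Eph and ephrin signalling, while the related adaptor Nck1 had 110 and 0 reads. Cd72 (13.5 and 39.8 TPM), a lymphocyte receptor of Sema4d, Rgmb (13.3 and 30.8 TPM), a neogenin ligand, and Rras (41.5 and 84.5 TPM), a GTPase that plexins inactivate, were also called toward W2. The ratios of Rgmb, 2.32 (1.93 to 2.79), and of Rras, 2.04 (1.63 to 2.55), have intervals that reach inside 2-fold. Dpysl2, which relays Sema3a signals in axons, was within 2-fold (39.7 and 49.8 TPM), and its relative Dpysl3 was 4.50-fold higher in W1 (3.95 to 5.14).

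**Figure D4:**
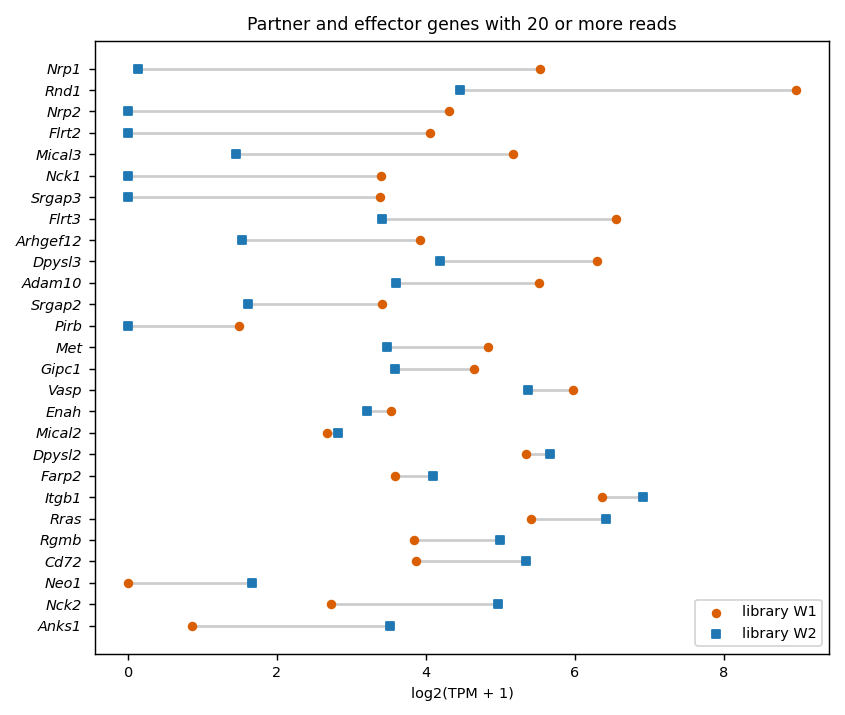
Level of the 27 partner and effector genes with 20 or more reads in at least 1 library, as log2(TPM + 1), ordered by the ratio of the 2 libraries. Orange circles are W1 and blue squares W2. Nrp1 and Rnd1 are at the top with W1 far to the right, and Nck2 and Anks1 are at the bottom with W2 to the right.

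For 26 members both libraries were at 0, and for several of them the counting could have seen little. The 65 members have 391 listed transcripts. Stretches of 50 bases found in no other listed transcript were counted in each, on the sense strand, and are called own sequence here. None of the 53 transcripts without own sequence had a read, against 12 of 236 transcripts with 1 to 500 such stretches and 42 of 102 with more. Among the 26 members at 0, the transcript with the most own sequence had a median of 1234.5 stretches, and in 7 it had 500 or fewer (Efna1, Ntn1, Plxnb3, Sema4a, Sema4c, Sema4g and Unc5a). For these 7 a listed 0 says little. The limit takes the 1 transcript with the most own sequence, so a 0 can say little for other members too. Long transcripts of Epha4, Robo3, Sema4b and Sema4d held 4 of 6279, 0 of 4663, 153 of 3900 and 74 of 4433 stretches of their own. In 4 members above 0 the largest was also 500 or fewer (Unc5b, Plxnb2, Ephb4 and Sema6a), so their counts are limited in the same way. Epha5, Ephb2, Epha10, Unc5d and Epha3 had the most own sequence among members at 0, from 9636 to 5737 stretches over all their transcripts. A count of 0 in W2 limits Epha5 to 0.0819 reads per 1000000 counted reads and 1000 such stretches, where Epha2 had 60.5. That limit pools the 11 listed transcripts of Epha5, of which 1 holds 3628 of the stretches and several hold none.

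**Figure D5:**
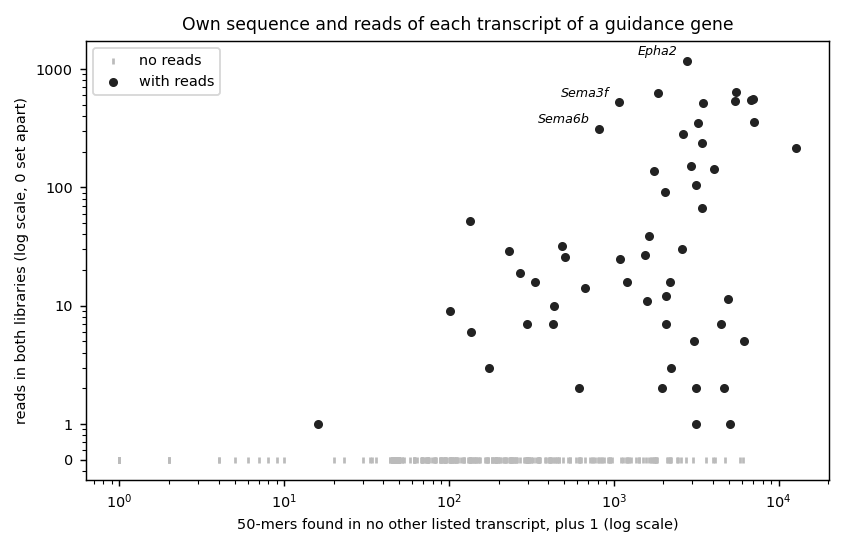
Each of the 391 listed transcripts of guidance genes, with the number of 50-base stretches found in no other listed transcript (plus 1, log scale) on the horizontal axis and the reads of both libraries together (log scale, 0 set apart at the bottom) on the vertical axis. Transcripts at the left end have no such stretches and no reads, and Sema6b and Sema3f lie high above the axis at 811 and 1068 such stretches.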

How the data were processed

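The authors deposited TPM and FPKM values for 137767 mouse transcripts in both libraries. Per the submitters' processing notes, the tools include Bowtie 0.12.2, and of the builds mm8 and GRCm38 it is not said which served for what. The counter, annotation and strand setting: not given in the sources used here. Of the transcripts, 137654 have an identifier in GENCODE M21 (GRCm38), and gene values are sums over listed transcripts. Reads were recovered from the steps of FPKM times transcript length, and 98.5% and 98.1% of transcripts above 0 came out whole within 0.1 read. A gene was compared where either library reached 1 TPM, by the log2 ratio of TPM + 1 and called at 2-fold, with no test. Intervals are exact Clopper-Pearson at 95%, floors are 3 reads, and both cover counting error only, as no molecular identifiers are named. A floor is turned into TPM at the gene's own TPM per read in the other library, scaled between the libraries. All 65 members are accounted for. Those with 20 or more reads in 1 library are given in full, as are the neuropilins and other partners named. The members, lists, pairs and motifs were chosen with earlier results of these data known. Alternatives covered pseudocount, filter, scaling and transcript choice. The steps were tested on simulated data. Software was matplotlib 3.10.9, pandas 2.3.3, scipy 1.17.1 and numpy 2.4.6 under Python 3.11.15. A marker list's TPM is a sum over its genes.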

Additional observations from a re-analysis of the deposited data

How the results depend on the processing

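The 15 members called toward W1 numbered between 11 of 28 (pseudocount of 5, where 16.8% of all genes were called so) and 21 of 33 compared (reads scaled to library size, 39.2% of all genes) over 8 alternatives, and the 8 called toward W2 between 5 of 28 (pseudocount of 5, 19.9% of all genes) and 9 of 28 (with ribosomal protein and mitochondrial genes left out, 37.7%). Zeros at the floor of 3 reads, an alternative chosen after seeing the data, gave 14 and 7. The members' median log2 ratio of 1.24 stayed above 0 in all 8, at 3.60 with a pseudocount of 0.1, 0.39 with a pseudocount of 5, 0.48 without the filter on low values, 1.55 among genes with 20 or more reads and 1.72 with reads scaled to library size. The share of all compared genes 2-fold or more apart, 67.6%, was 71.9% and 36.7% with pseudocounts of 0.1 and 5, 53.8% without the filter, 63.6% among genes with 20 or more reads, 65.9% with FPKM, 70.9% with ribosomal protein and mitochondrial genes left out and 69.4% with the highest transcript of each gene. A larger pseudocount shrinks ratios of low genes by construction. Of the 24 members with 20 or more reads, all kept their sign except Efnb1, and the calls that crossed 2-fold were those of Epha1, Epha2, Plxna1, Ephb3, Sema6d and Robo4, the last 3 with a pseudocount of 5. No paired analysis was possible because there is 1 library of each kind and neither is assigned to a group. Listed transcripts without sequence of their own had no reads, which limits levels between genes, and 1 library of each gives no spread between replicates.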

Other observations

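Reads on transcripts not annotated as protein-coding were seen for the guidance genes mainly in W1. Retained-intron transcripts took 3.27% of the members' reads in W1 and 0% in W2, where the members had 2407 reads, while over all protein-coding genes they took 3.43% and 1.36%. Processed transcripts took 3.78% and 0% of the members' reads, against 1.14% and 0.657% over all protein-coding genes. Transcripts annotated for nonsense-mediated decay went the other way, at 0.213% and 0.872%, against 0.529% and 0.515%. For Sema3c, Sema6d and Robo2 the retained-intron transcript was the only one with reads, for Robo1 a processed transcript and for Ephb4 a transcript annotated for nonsense-mediated decay, so these 5 genes had no read on a coding transcript.

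The order of the members depends on how length is taken into account. By TPM in W1, summed over transcripts, Sema3a (68.9), Sema3f (54.8) and Plxna2 (33.5) were the highest. On the transcript with the most reads alone, Sema3f stood at 50.1, Sema3a at 35.2 and Plxna2 at 16.6 TPM. Plxna2 was then below members such as Epha2 (30.9), Plxnd1 (30.1) and Sema6b (27.6). Per 1000 stretches of own sequence and 1000000 counted reads, a measure added after the values were seen, Sema6b (107) and Sema3f (77.1) came first, followed by Plxnd1 (34.9), Epha2 (34.0) and Sema3a (29.2), and Plxna2 stood at 18.1. The stretches are summed over all listed transcripts of a gene, also those without reads, and the order depends on this. Of the 9412 stretches of Sema3a, 1511 and 2144 lie on transcripts without reads, and 1845 on the transcript with 632 of its reads. In W2, Epha2 was first by both measures, at 67.9 TPM and 60.5 on the other scale. Efnb2 followed by TPM (20.5) and Efna5 by own sequence (17.7). The same measure put Ephb4 in W2 at 10.6, above Ephb3 (2.29) and Ephb6 (1.81), whereas by TPM Ephb4 (1.599) was below Ephb3 (2.04).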
